A study of Mus musculus with 6 samples.

Results

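Glycolysis and lactate export were followed step by step, from glucose uptake to the release of lactate, through the transcripts of 28 genes out of 22180 measured. The members are the genes of a list of 32 for which the platform annotation gives at least 1 row of the array table with that symbol alone, and where a gene had several such rows the row with the highest mean over all 6 arrays was used. Gpi1 and Eno1, of the isomerase and enolase steps, Aldoa, the main aldolase, and Pfkfb1 had no such row and are not analysed here. The cells were myeloid cells of mouse fetal liver kept in GM-CSF at 1 ng/ml, which granulocytes and macrophages need for growth, and each array carried total RNA of 1 sample. In the uninduced group, 3 samples (A, B and C) received no doxycycline, also over 72 hours. In the induced group, 3 samples (A, B and C) were given doxycycline, a tetracycline analogue that switches on an engineered gene, at 1000 ng/ml over 72 hours, and the labels give this treatment as PU.1 expression, PU.1 being the product of Spi1 and a transcription factor of the ETS family. The labels describe neither the construct nor the way the cells were immortalised or cloned, if they were, and no sample had the drug without the engineered gene, so effects of doxycycline and of PU.1 cannot be told apart. Nothing in the labels says that the 3 samples of a group were separate cultures, so the p-values speak only of the scatter among these arrays, part or all of which may be technical.

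In glycolysis a cell takes up glucose through transporters of the GLUT family, phosphorylates it by hexokinase, commits it by phosphofructokinase, splits the sugar by aldolase and turns the products into pyruvate with a gain of ATP. When pyruvate is reduced to lactate by lactate dehydrogenase, NAD+ is restored, and lactate leaves the cell with a proton through monocarboxylate transporters. Macrophages and neutrophils are known for heavy use of this route, and many of its genes are textbook targets of the hypoxia-inducible factor HIF-1, which binds a short element whose core reads ACGTG or GCGTG; the first form was searched here.

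Because members of several steps moved together, the windows before their annotated starts are shown for the uptake transporter, 2 enzymes and the lactate exporter that fell (Slc2a1, Pfkl, Pgk1 and Slc16a3), for the 1 member that rose (Hk3) and for Ldha, the enzyme that makes lactate, which was not called. Each is the 250 bases before an annotated start of the gene, 5′ to 3′ on its strand, from RefSeq in build GRCm38.p6. Every ACGTG, or CACGT where the match is on the other strand, is in capitals. The windows lie at chr4:119108495-119108744 (plus strand) for Slc2a1, chr13:55021386-55021635 (minus) for Hk3, chr10:78009808-78010057 (minus) for Pfkl, chrX:106186850-106187099 (plus) for Pgk1, chr7:46845554-46845803 (plus) for Ldha and chr11:120948817-120949066 (plus) for Slc16a3. The starts used for Slc16a3 and Ldha lie inside the annotated genes, which begin at 120948484 and 46842274. The Hk3 window overlaps its gene, which reaches 55021475.
Slc2a1: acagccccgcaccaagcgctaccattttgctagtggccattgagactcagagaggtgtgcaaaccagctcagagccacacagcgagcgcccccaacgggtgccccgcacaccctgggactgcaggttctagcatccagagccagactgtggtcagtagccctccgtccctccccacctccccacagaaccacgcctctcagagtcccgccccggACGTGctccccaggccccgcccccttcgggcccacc
Hk3: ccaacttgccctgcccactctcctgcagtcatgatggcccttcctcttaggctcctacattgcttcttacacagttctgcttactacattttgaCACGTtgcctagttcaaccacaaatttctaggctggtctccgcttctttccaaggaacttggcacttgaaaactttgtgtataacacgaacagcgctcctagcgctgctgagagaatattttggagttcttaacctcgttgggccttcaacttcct
Pfkl: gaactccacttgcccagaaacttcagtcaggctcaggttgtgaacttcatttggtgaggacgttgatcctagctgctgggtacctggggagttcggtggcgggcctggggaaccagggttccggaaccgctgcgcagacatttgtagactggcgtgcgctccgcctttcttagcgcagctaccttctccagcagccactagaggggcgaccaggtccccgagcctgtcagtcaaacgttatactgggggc
Pgk1: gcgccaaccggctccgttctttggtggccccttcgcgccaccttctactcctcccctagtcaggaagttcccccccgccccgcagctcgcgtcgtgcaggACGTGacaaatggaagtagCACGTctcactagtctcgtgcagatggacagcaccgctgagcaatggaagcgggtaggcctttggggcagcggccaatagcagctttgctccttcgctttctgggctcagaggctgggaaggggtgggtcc
Ldha: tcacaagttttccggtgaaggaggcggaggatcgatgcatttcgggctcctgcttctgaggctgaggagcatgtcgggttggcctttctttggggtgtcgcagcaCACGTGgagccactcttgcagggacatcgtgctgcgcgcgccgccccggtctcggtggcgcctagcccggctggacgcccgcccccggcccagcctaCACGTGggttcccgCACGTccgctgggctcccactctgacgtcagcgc
Slc16a3: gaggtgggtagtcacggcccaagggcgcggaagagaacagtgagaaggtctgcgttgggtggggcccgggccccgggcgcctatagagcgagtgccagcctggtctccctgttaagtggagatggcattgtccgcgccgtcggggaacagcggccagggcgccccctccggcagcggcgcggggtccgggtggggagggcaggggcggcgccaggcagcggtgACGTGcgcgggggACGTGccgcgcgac

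The ACGTG core, searched on both strands with overlapping matches taken as 1 site, was found in 16 of the 37 windows of the analysed members, and in 16.6% of the 32851 windows of all genes. It overlaps the E-box CACGTG, which holds it on both strands and occurred in 6 of the 37 windows and in 6.02% of all windows. Windows were found for 27 of the 28 members, all but Slc2a3, and some genes have several starts whose windows overlap, so the windows are not independent. By gene, 4 of the 8 members that fell had the core (Slc2a1, Pfkm, Pgk1 and Slc16a3), as did Hk3 and 8 of the 18 uncalled members with a window. Ldha, with 3 sites before 1 of its starts, held more than any other member, whereas Pfkl, Pfkp, Aldoc and Tpi1 held no ACGTG. The other form, GCGTG, was not searched, and it does occur in the printed Pfkl window. The purine-rich core GAGGAA, as in elements bound by PU.1, was found in 11 of the 37 windows and in 23.3% of all windows. Counted by gene, 2 of the 8 members that fell held it (Pfkm, in each of its windows, and Aldoc). So did Hk3 and 5 of the 18 uncalled members with a window (Hk1, Pfkfb3, Fbp1, Pgam1 and Bpgm). These matches describe letters in a window and not binding.

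**Figure D1:**
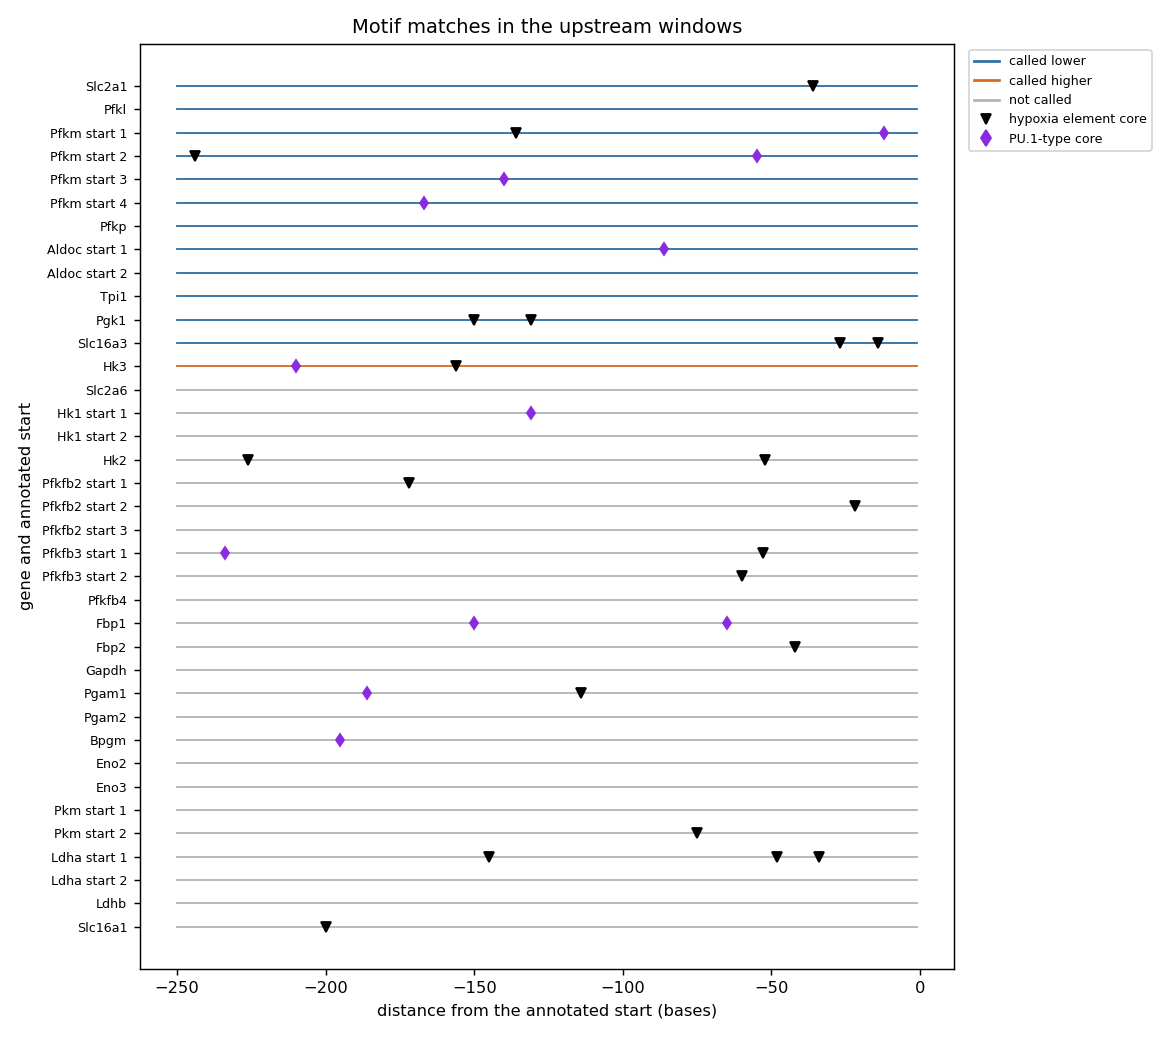
Matches to the ACGTG core (triangles) and to the GAGGAA core (diamonds) in the 250 bases before each annotated start of the analysed members, by distance from the start in bases. Blue lines are members that fell, the orange line is Hk3, which rose, and grey lines are members not called; 5 of the 12 windows of members that fell and 10 of the 24 of uncalled members hold the ACGTG core.

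Levels are given on the authors' deposited log2 scale, and changes are induced minus uninduced on that scale. A level below the 95th percentile of 1389 olfactory and vomeronasal receptor genes on the same array, which ran from 7.05 to 7.99, is called the range of background. Spi1, the gene of PU.1, was at 8.80, 8.65 and 8.84 on the uninduced and at 9.13, 9.04 and 9.05 on the induced arrays. The induced values were all higher, but the change of 0.31 (SE 0.12) did not pass the limma test (adjusted p = 0.152), and whether its probes cover the engineered transcript is not given in the sources used here, so this row gives the label no clear support. Correlations between arrays of 1 group ran from 0.973 to 0.988, and uninduced A correlated with induced A at 0.991. The interquartile range of gene values was 2.29 to 2.76 on the uninduced arrays and induced A, and 1.88 and 1.93 on induced B and C. The median gene value was 0.11 higher on the induced arrays as a group. Of 8 myeloid markers, 6 were above background on all arrays, and 3 were called higher in induced cells. Lyz2, the lysozyme of macrophages and granulocytes, went from 11.43, 11.03 and 11.45 to 12.77, 12.70 and 12.73 (1.43, SE 0.15, adjusted p = 0.0011). Mpo, the myeloperoxidase of neutrophil granules, was above background on the induced arrays alone and was called higher there (adjusted p = 0.0117). Its value on induced B barely exceeded the background limit of that array. The limits of induced B and C were also above those of the uninduced arrays, so no size is given for Mpo. Ptprc (CD45) was also called (adjusted p = 0.0106), in the range of background on every array. The others were not called: beside Spi1, Itgam changed by 0.60, Csf2ra by 0.11 and Csf2rb by -0.09. Cd33 changed by -0.29, with all induced values below all uninduced ones. The summed level of the 8 markers, as log2, was between 13.20 and 13.39 on the uninduced and between 13.73 and 13.78 on the induced arrays. This sum weights bright genes, and Lyz2 was the brightest on the induced arrays. All 3 erythroid, all 4 megakaryocyte and all 5 stromal markers found were in the range of background on every array, and so were 6 of 7 mast cell, 5 of 6 hepatocyte and 4 of 6 B-lineage markers. The summed level of the mast cell list, carried by Mcpt8, was between 9.36 and 9.48 on the uninduced arrays and between 8.83 and 9.17 on the induced ones, and of 4 endothelial markers Pecam1, which myeloid cells also express, was above background on all arrays; the part of these shifts in the results was not tested.

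With doxycycline, 8 of the 28 members fell and 1 rose, in the limma fit over all genes with a threshold of 0.05 on the adjusted p. In that fit 1.05% of all genes were called lower and 0.374% higher. The genes that fell were the glucose transporter Slc2a1, all 3 phosphofructokinase subunits (Pfkl, Pfkm and Pfkp), the aldolase Aldoc, the triose enzymes Tpi1 and Pgk1, and the lactate exporter Slc16a3, so that 6 of the 14 measured steps held a member that fell. Hk3, a hexokinase of myeloid cells, rose. The median change over the 28 members was -0.47, against 0.06 over all genes. A change below 0 was found for 19 of the 28 members and for 9768 of all 22180 genes. At an unadjusted p under 0.05, 16 members were lower and 3 higher, against 16.9% and 11.4% of all genes. The 3 induced values lay below the 3 uninduced values for 15 members, as they did for 15.4% of all genes, and above them for 4, as for 16.0% of all genes. The 28 members include 7 in the range of background on all 6 arrays, 13 above it on all 6 and 8 above it on some. Of all 22180 genes, 11922 were in that range on all 6 arrays. The shares and medians over all genes thus rest in large part on such genes. In RNA of whole cultures, fewer cells with a transcript and less of it per cell cannot be told apart.

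**Figure D2:**
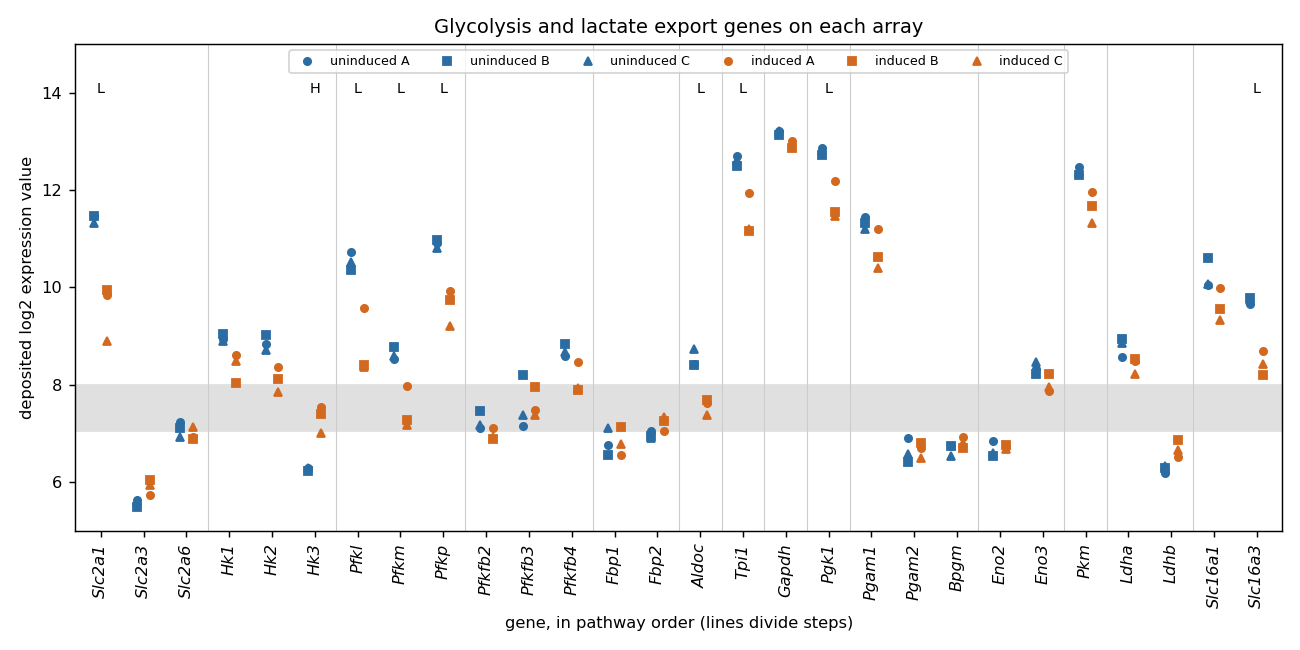
Deposited log2 values of the 28 members on each array, in pathway order, with uninduced samples in blue and induced samples in orange. The grey band spans the range of background over the arrays (7.05 to 7.99), and L and H mark the 8 members that fell and the 1 that rose.

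The basal glucose transporter GLUT1, encoded by Slc2a1 (chromosome 4, 119108745 to 119137330 in GRCm38, also called mm10), had the largest fall of the members. Uninduced A, B and C gave 11.46, 11.46 and 11.33, against 9.85, 9.95 and 8.90 from induced A, B and C. All induced values were well below all uninduced ones, with induced C lowest. The change was -1.85 (SE 0.24, adjusted p = 0.00442), and the call held under each of the 15 refits tried, among them each single array left out (adjusted p from 0.00209 to 0.0336). A second row with the same symbol was at 5.20 and 5.08 on average, in the range of background. The high-affinity transporter Slc2a3 (GLUT3) did not leave the range of background and was not called (adjusted p = 0.157). Slc2a6 (GLUT6), a transporter of lysosomal membranes, stayed between 6.88 and 7.24 with overlapping groups.

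Of the 3 isozymes of hexokinase, which traps glucose by phosphorylation, 1 rose and the other two were not called. Hk1, the isozyme of most tissues, was at 8.93, 9.05 and 8.91 without and at 8.62, 8.04 and 8.48 with doxycycline, a change of -0.58 (SE 0.16) that did not pass the test (adjusted p = 0.101). Hk2, the inducible isozyme, was at 8.84, 9.02 and 8.71 and at 8.37, 8.11 and 7.86, and its change of -0.74 (SE 0.16) missed the threshold narrowly (adjusted p = 0.0519). For both genes the groups did not overlap. Hk3 (chromosome 13, 55005985 to 55021475), an isozyme of granulocytes and macrophages, went the other way, from 6.29, 6.24 and 6.30 to 7.55, 7.40 and 7.01. It rose by the test (adjusted p = 0.00922), and induced A was the highest and the only array on which it lay above the range of background, so no size is given. Its call ended without uninduced A (adjusted p = 0.0554, the highest over its alternatives, which began at 0.000333).

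Phosphofructokinase, the committing step, had all 3 subunit genes lower. Pfkl (chromosome 10, 77986947 to 78009807), the liver-type subunit, was at 10.73, 10.37 and 10.52 in uninduced cells and at 9.57, 8.40 and 8.37 in induced cells. Its change was -1.76 (SE 0.28, adjusted p = 0.0127), and induced A kept more of the signal than induced B and C. On induced B and C the background limits were 7.99 and 7.86, not far below the Pfkl values. Pfkp (chromosome 13, 6579874 to 6649060), the platelet-type subunit, went from 10.91, 10.98 and 10.80 to 9.93, 9.74 and 9.20, a change of -1.27 (SE 0.18, adjusted p = 0.00759). Pfkm (chromosome 15, 98092589 to 98132447), the muscle-type subunit, was at 8.54, 8.77 and 8.59 and at 7.98, 7.28 and 7.17, and only induced A remained above the range of background. Its fitted change was -1.16 (SE 0.20, adjusted p = 0.0209), a size that is uncertain because the signal was measured above background on 1 of the 3 induced arrays. None of the 3 genes had overlapping groups. Pfkl lost its call without uninduced A (adjusted p up to 0.0734 over single arrays left out), induced B or induced C, Pfkp without uninduced A (0.0509), and Pfkm without any single array but induced A (up to 0.106). The call of Pfkm also ended after quantile normalization (adjusted p = 0.0669) and median centring (0.0551).

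The bifunctional PFKFB enzymes set fructose 2,6-bisphosphate, the activator of phosphofructokinase, and none of the 3 measured passed the test. Pfkfb4 was at 8.58, 8.85 and 8.67 in uninduced cells and at 8.48, 7.89 and 7.93 in induced cells (-0.60, SE 0.17, adjusted p = 0.103), with the induced values all lower. Pfkfb3 ran from 7.15 to 8.20 in uninduced cells and from 7.39 to 7.95 in induced cells, with overlapping groups and a change of 0.03 (SE 0.25). Pfkfb2 stayed between 6.88 and 7.47. The opposing phosphatase genes of gluconeogenesis, Fbp1 and Fbp2, never left the range of background, and neither was called.

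Aldolase, which splits the sugar, was measured only through Aldoc (chromosome 11, 78323073 to 78327781), known as the brain-type isozyme. It was at 8.42, 8.41 and 8.73 in uninduced cells and at 7.63, 7.69 and 7.39 in induced cells, a fitted change of -0.95 (SE 0.15, adjusted p = 0.0115). The 3 induced values were close together, and only that of induced A was above the range of background, so the size is uncertain here too. The call of Aldoc ended without uninduced C or induced C (adjusted p up to 0.0754) and after either quantile normalization or cyclic loess (-0.72, adjusted p = 0.0806; its adjusted p over all alternatives ran from 2.48e-05 to 0.258). Tpi1 (chromosome 6, 124810586 to 124814158), which interconverts the triose phosphates, went from 12.69, 12.50 and 12.61 to 11.93, 11.17 and 11.21. That was a change of -1.16 (SE 0.20, adjusted p = 0.0188), smaller in induced A than in induced B and C.

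The payoff steps were uneven. Gapdh, the glyceraldehyde-3-phosphate dehydrogenase, was at 13.21, 13.14 and 13.22 in uninduced cells and at 13.01, 12.87 and 12.92 in induced cells. Its groups did not overlap, but the change of -0.25 (SE 0.12) did not pass the test (adjusted p = 0.191). The other 2 rows with this symbol alone changed by -0.23 and -0.43, and 8 more rows named it beside another gene and were not used; near-identical copies of Gapdh are common in the mouse genome, so its value is uncertain. Pgk1 (chromosome X, 106187100 to 106203699), the phosphoglycerate kinase that makes the first ATP of the route, went from 12.85, 12.72 and 12.80 to 12.19, 11.55 and 11.47. It changed by -1.06 (SE 0.19, adjusted p = 0.0225), again least in induced A. Tpi1 and Pgk1 both lost their calls without any single array but induced A, with adjusted p up to 0.103 and 0.114 and changes between -1.41 and -1.03 for Tpi1 and between -1.28 and -0.92 for Pgk1 over the single arrays left out.

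Pgam1, the phosphoglycerate mutase of most tissues, was at 11.45, 11.33 and 11.19 and at 11.21, 10.63 and 10.40. Its change of -0.57 (SE 0.19, adjusted p = 0.126) did not pass, the groups overlapped, and a second, dimmer row of the gene was at -0.37. Pgam2, the muscle mutase, and Bpgm, which makes 2,3-bisphosphoglycerate in red cells, were in the background range throughout. So was Eno2, the neuronal enolase, while Eno3, the muscle enolase, ran from 8.23 to 8.47 and from 7.87 to 8.23 (-0.32, SE 0.14, adjusted p = 0.174). Pkm, pyruvate kinase of the muscle type, whose row does not separate its splice forms, was at 12.47, 12.32 and 12.36 and at 11.95, 11.66 and 11.33. The induced values were all lower, and the change of -0.74 (SE 0.16) missed the threshold (adjusted p = 0.0599).

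Lactate dehydrogenase was not called through either subunit. Ldha, the subunit that favours making lactate, was at 8.57, 8.94 and 8.85 in uninduced cells and at 8.50, 8.53 and 8.22 in induced cells (-0.37, SE 0.15, adjusted p = 0.152), the highest induced value lying just below the lowest uninduced one. Ldhb, the subunit that favours pyruvate, stayed in the range of background on all arrays (adjusted p = 0.124).

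Of the 2 exporters of lactate, 1 fell. Slc16a3 (chromosome 11, 120948484 to 120959000), which encodes MCT4, the lactate exporter of strongly glycolytic cells, was at 9.67, 9.79 and 9.73 in uninduced cells and at 8.69, 8.21 and 8.42 in induced cells. The uninduced values were within 0.12 of each other and all induced values lay below them. The change was -1.29 (SE 0.15, adjusted p = 0.00216), the lowest adjusted p of the members, and it passed the test with any single array left out (adjusted p from 0.000584 to 0.0159). On induced B the value of Slc16a3 was near the background limit of that array (8.21 against 7.99), so the size is less certain than the call. Slc16a1, which encodes MCT1, a carrier of lactate in either direction, was at 10.05, 10.61 and 10.07 and at 9.99, 9.56 and 9.32. It was not called (-0.62, SE 0.20, adjusted p = 0.123), and the uninduced B value stood apart from the other uninduced values.

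**Figure D3:**
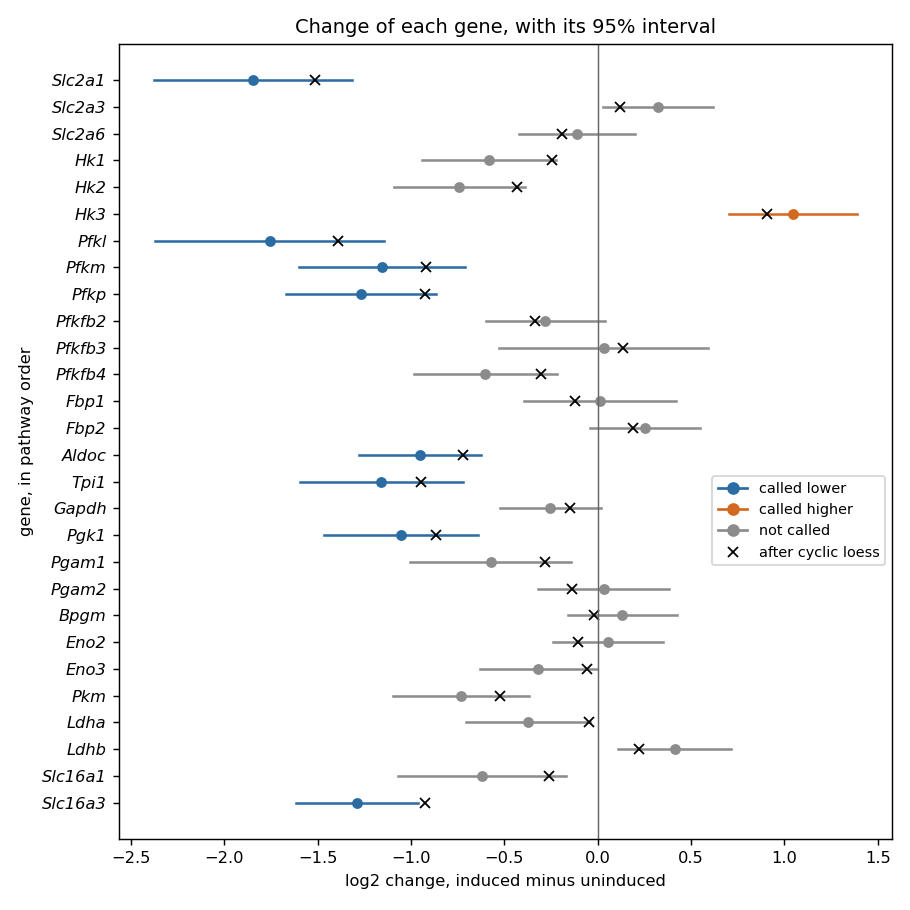
Log2 change of each member (points) with its unadjusted 95% interval (lines), as deposited, and the change after cyclic loess between arrays (crosses). Blue marks the 8 members that fell, orange Hk3, which rose, and grey those not called; 7 of the 8 stayed past the threshold after cyclic loess, all but Aldoc.

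The size of the falls differed between the induced arrays. Over the 8 members that fell, the median difference from the uninduced mean was -0.93, -1.39 and -1.43 on induced A, B and C in turn. Induced A was the highest induced array for 6 of these 8 genes, and induced C the lowest for 6. Over all genes the same medians were 0.00, 0.07 and 0.06. For Slc2a1 the 3 differences were -1.56, -1.47 and -2.51, and for Pfkl they were -0.97, -2.14 and -2.17. The induced arrays also differed more among themselves: the SD was larger in induced than in uninduced cells for 7 of the 8 genes, between 0.16 and 0.68 against 0.06 and 0.18. With induced A alone set against the uninduced samples, 1 member was called lower (Slc2a1) and 1 higher (Hk3), against 0.0857% and 0.185% of all genes, in a fit that assumes that a lone induced sample varies like the uninduced ones. Without induced A, 14 were lower and 3 higher, against 15.9% and 9.01% of all genes. Gene values also spread less on induced B and C, as given above, and all 8 genes that fell were above background on all uninduced arrays. After cyclic loess, which removes differences between arrays that follow the level, the median over the members was -0.25, against 0.00 over all genes, 23 members were below 0, and 7 were called lower and 1 higher, against 0.532% and 0.374% of all genes.

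**Figure D4:**
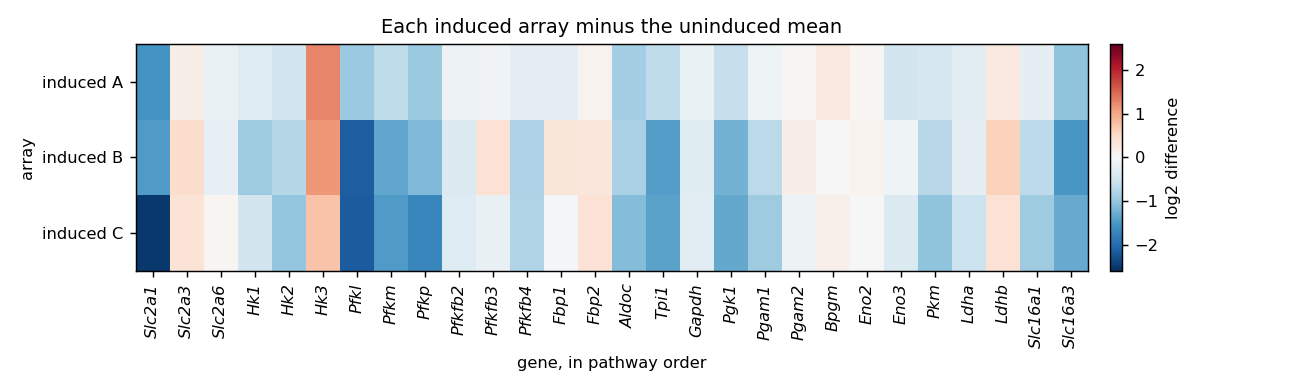
Difference of each induced array from the mean of the 3 uninduced arrays, for each member in pathway order (blue lower, red higher, log2 scale). Slc2a1, Pfkl, Pfkp and Slc16a3 are lower in all 3 induced arrays, most of the falls are smaller in induced A, and Hk3 is higher in all 3.

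Isoforms of a step were compared through the difference of their log2 values within each array, which does not depend on a shift common to all values of the array. It can still depend on the spread of the values, which was narrower on induced B and C. Of 13 pairs, 4 had both genes above background on at least 3 arrays. Pfkm was in the range of background on induced B and C, and Hk2 on induced C, so the differences from these genes are uncertain on those arrays. The smallest p that an exact permutation test of 3 against 3 arrays can give is 0.1, so no pair could pass 0.05. Pfkl minus Pfkm went from 1.91 ± 0.30 to 1.30 ± 0.25 (mean ± SD, n = 3 per group, exact permutation p = 0.1, two-sided). Its groups did not overlap, but only just, with 1.592 in uninduced B and 1.589 in induced A, where both genes were above background. The lower values on induced B and C rest on the dim Pfkm signal, and no change of this pair is read from them. Slc16a3 minus Slc16a1 went from -0.51 ± 0.27 to -1.18 ± 0.25 (exact permutation p = 0.1), lower on all 3 induced arrays, with Slc16a3 near the background limit on induced B. Pfkp minus Pfkm (2.26 ± 0.10 and 2.15 ± 0.27, exact permutation p = 0.5) and Hk2 minus Hk1 (-0.11 ± 0.09 and -0.27 ± 0.35, exact permutation p = 0.6) overlapped between the groups. For Pfkp minus Pfkm the values on induced B and C rest on the same dim Pfkm signal, so its overlap is not read as a lack of change. Adjusted over these 4 pairs by the Benjamini-Hochberg method, the lowest p was 0.2.

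**Figure D5:**
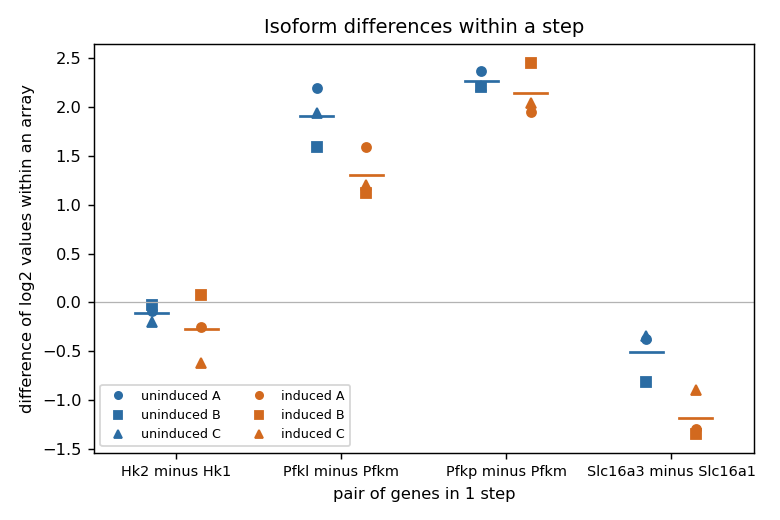
Difference of the log2 values of 2 genes of a step within each array, for the 4 pairs with both genes above background on at least 3 arrays, with a bar at each group mean (blue uninduced, orange induced). The induced values of Pfkl minus Pfkm and of Slc16a3 minus Slc16a1 lie below the uninduced ones, and those of the other pairs overlap; Pfkm on induced B and C and Hk2 on induced C were in the range of background.

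Of 47 other genes around the route, in 4 lists, 4 fell and 0 rose, against 1.05% and 0.374% of all genes, and their median change was -0.24, against 0.06 over all genes. Among 14 genes of pyruvate entry into mitochondria 1 fell. It was Pdk1, the kinase that shuts the pyruvate dehydrogenase complex, at 8.78, 8.54 and 8.66 in uninduced cells and 7.96, 7.34 and 7.28 in induced cells (a fitted change of -1.13, SE 0.18, adjusted p = 0.0147). Only its induced A value exceeded the background limit of its array among the induced ones, so this size is uncertain. The pyruvate carrier Mpc1 (-0.24, SE 0.16) and the dehydrogenase subunit Pdhb (-0.47, SE 0.19), the brightest of that list, were not called. Among 15 genes of glycogen and side branches 2 fell. Glycogen synthase, Gys1, went from 10.59, 10.66 and 10.54 to 9.86, 9.31 and 9.26 (-1.12, SE 0.17, adjusted p = 0.0106). The branching enzyme Gbe1 went from 10.84, 10.87 and 10.75 to 10.15, 9.77 and 9.90 (-0.88, SE 0.14, adjusted p = 0.0129). Glycogen phosphorylase Pygl (-0.59, adjusted p = 0.0523) and Pgm2 (-0.54, adjusted p = 0.124) were not called.

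Among 9 other carriers and partners 1 fell, Bsg, which encodes basigin, the chaperone that brings MCT1 and MCT4 to the cell surface. It was at 11.50, 11.73 and 11.62 in uninduced cells and at 10.95, 10.69 and 10.87 in induced cells (-0.78, SE 0.13, adjusted p = 0.0193). Emb, the partner of other monocarboxylate carriers, was at -0.19 (SE 0.16) and the aromatic amino acid carrier Slc16a10 at 0.13 (SE 0.17), neither called. All 9 isoforms known as restricted to certain tissues that were found, among them Pklr and Slc2a2, were within the background range on every array, and none was called. The 4 genes that fell were called under 7 (Bsg), 8 (Pdk1), 10 (Gbe1) and 11 (Gys1) of 15 refits, and all 4 lost their calls without uninduced A.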

How the data were processed

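Total RNA of 6 samples, 3 per group, was hybridised to Affymetrix arrays (Mouse Gene 2.0 ST), with groups taken from the sample titles. The authors deposited log2 values, 1 per transcript cluster (41345 rows). Per the submitters' processing notes, Partek and mm10 were used; how background was corrected and arrays were normalized is not given in the sources used here, and the log2 scale was read from the values (2.86 to 14.03). The number of arrays limits the precision. Rows were named through GEO's platform annotation, in which 23521 rows carry 1 gene symbol, 1814 several and 16010 are not listed; no symbol needed updating through RefSeq (GRCm38.p6). The row with the highest mean stood for a gene.

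Groups were compared over all 22180 genes with limma 3.58.1 in R 4.3.3 (lmFit, eBayes, two-sided, no covariate, no filter), with Benjamini-Hochberg adjustment at 0.05. The test was run on simulated data with known changes. Isoform pairs were tested by exact permutation (scipy 1.17.1). The members, the lists of other genes and markers, and the isoform pairs were chosen with earlier results of these data known. All members may be named; of each other list, up to 4 called members with the largest change and up to 2 of the brightest uncalled ones. The alternatives were quantile normalization, cyclic loess, median centring, a filter at the 50th percentile, the mean of a gene's rows, array weights, a variance trend with robust moderation, the letter as a block, a threshold of 0.01, the 90th percentile for background, and leaving out each array; leaving out induced B and C together was added after seeing the data.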

Additional observations from a re-analysis of the deposited data

How the results depend on the processing

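The numbers of members called lower and higher, 8 and 1, became 6 and 1 after quantile normalization, 7 and 1 after cyclic loess or median centring, 10 and 0 among genes above the 50th percentile of mean level, 18 and 4 with array weights, 3 and 1 at a threshold of 0.01, 1 and 1 without induced B and C, and 3 to 14 and 0 to 3 with 1 array left out, the highest without induced A. All called genes, 232 lower and 83 higher, were 5681 and 5825 with array weights, which lay between 0.309 and 4.6, and 47 to 3535 and 45 to 1998 with 1 array left out. They were 108 and 78 after quantile normalization and 118 and 83 after cyclic loess. At the threshold of 0.01 Slc2a1, Pfkp, Slc16a3 and Hk3 remained. The filter at the 50th percentile of mean level removed Hk3, so Hk3 was not tested in that setting.

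Of the other genes of the pathway, 4 lower and 0 higher, 2 were lower after quantile normalization, 2 after cyclic loess, 21 lower and 5 higher with array weights, 0 lower at a threshold of 0.01, 0 without induced B and C, and 0 to 16 lower and 0 to 1 higher with 1 array left out.

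The letter as a replicate block called 10 members lower and 1 higher, Hk2 and Pkm being added, and 425 genes lower and 174 higher of all. Same-letter deviations from the group means correlated at -0.312 (A), -0.278 (B) and 0.416 (C). Only the C samples correlated best with their own letter. Deviations within a group cancel when summed, so these correlations depend on each other and cannot decide whether the letters pair the samples.

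Signs turned only for genes and pairs that were not called. Quantile normalization gave Fbp1 -0.11, Pgam2 -0.14, Bpgm -0.0201, Eno2 -0.11, Emb 0.0097 and Pfkp minus Pfkm 0.0587. Cyclic loess gave Fbp1 -0.12, Pgam2 -0.14, Bpgm -0.0194, Eno2 -0.11, Emb 0.0731 and Mpc1 0.0007. Median centring gave Pfkfb3 -0.0831, Fbp1 -0.10, Pgam2 -0.0836 and Eno2 -0.0614, and array weights Slc2a6 0.11, Fbp1 -0.21, Pgam2 -0.0665 and Slc16a10 -0.0069. Without induced B and C, Pfkfb3 was at -0.10, Fbp1 at -0.25 and Emb at 0.11. With 1 array left out the ranges were -0.18 to 0.34 (Pfkfb3), -0.14 to 0.16 (Fbp1), -0.0802 to 0.17 (Pgam2), -0.0101 to 0.15 (Eno2), -0.0003 to 0.24 (Pklr), -0.0473 to 0.26 (Slc16a10) and -0.33 to 0.0167 (Hk2 minus Hk1). The causes were not tested. For the 7 members in the range of background on all arrays, no size of change can be read at this signal. With the 90th percentile of the receptor genes as the limit, 2 members were in that range on all arrays.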
